A study of Mus musculus with 4 samples.

Results

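The Hox genes are the homeobox transcription factor genes that lie in the HoxA, HoxB, HoxC and HoxD clusters, and here their transcripts were followed in adult mouse kidney. Members were taken by name alone, as every row of the deposited table whose symbol is Hox, a cluster letter from a to d and a number. This gave 40 rows of 54232, which stand for 39 genes because Hoxd4 is listed under 2 Ensembl identifiers. There were 11 genes in HoxA (chromosome 6, 52155590 to 52260880, mm10, minus strand) and 10 in HoxB (chromosome 11, 96194316 to 96368256). HoxC held 9 genes (chromosome 15, 102921103 to 103036852) and HoxD 9 (chromosome 2, 74668310 to 74765142), and HoxB, HoxC and HoxD lie on the plus strand.

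Poly(A) RNA of whole kidneys from mice 60 days old was sequenced in 4 libraries, each from pooled RNA, with 3 kidneys per group according to the labels. WT replicates 1 and 2 came from wild-type mice, and HET replicates 1 and 2 from Tshz3+/LacZ mice, which carry 1 LacZ allele of the zinc-finger gene Tshz3. The sources used here give neither strain, sex nor the structure of the allele. They also leave unsaid whether replicate pools came from different kidneys, so the p-values cover the spread between pools alone, which may be technical. All 4 Y-linked genes looked at were lowest in HET replicate 1, with Eif2s3y at 22.95 and 12.98 TPM in WT and at 3.27 and 15.4 TPM in HET. The depth was 62631750 to 70792042 reads per library. Tshz3 itself was at 0.653 and 0.723 TPM in WT and at 0.833 and 0.760 TPM in the libraries labelled HET, so it was not lower there. Its level did not bear out the labels, but at so low a level and with the allele's structure unknown it cannot test them. Every direction below is that of the libraries as labelled. Markers of the labelled tissue were abundant, with a summed level of 3404 to 4403 TPM for 6 proximal tubule genes and of 2288 to 3312 TPM for 4 genes of the thick ascending limb.

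Hox genes are arranged in the order in which they are used along the body axis, with low paralog numbers at the head end and high numbers at the tail end, and each number marks the gene copies that share an ancestor. Their proteins bind DNA through the homeodomain, often together with the TALE homeodomain proteins of the Pbx, Meis and Pknox families. Polycomb proteins keep the clusters silent and trithorax proteins keep them active, while retinoic acid turns on their head-end members in the embryo. In the developing mouse kidney the group 11 genes Hoxa11, Hoxc11 and Hoxd11 act together with Eya1 and Pax2 in the mesenchyme that calls out the ureteric bud. Adult tissues keep a record of their axial position in the Hox genes they transcribe.

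The promoters of 4 genes are shown first, to set abundant Hox genes beside neighbours with few reads. Hoxd8 and Hoxa10 were the highest Hox genes of these kidneys, whereas their cluster neighbours Hoxd13 and Hoxa13 had 2 and 18 reads in the whole study. They were picked for this contrast after values and CpG counts were seen, and they do not stand for all genes with few reads. Each stretch covers 250 bases before and 50 bases after a RefSeq transcription start, written from 5′ to 3′ along the gene, on GRCm38.p6, the assembly also called mm10. The intervals are chr2:74704365-74704664 (plus strand) for Hoxd8, chr6:52240805-52241104 (minus strand) for Hoxa10, chr2:74667975-74668274 (plus strand) for Hoxd13 and chr6:52260831-52261130 (minus strand) for Hoxa13. Capitals mark the CpG dinucleotide, the letters CG, which reads the same on both strands.
Hoxd8: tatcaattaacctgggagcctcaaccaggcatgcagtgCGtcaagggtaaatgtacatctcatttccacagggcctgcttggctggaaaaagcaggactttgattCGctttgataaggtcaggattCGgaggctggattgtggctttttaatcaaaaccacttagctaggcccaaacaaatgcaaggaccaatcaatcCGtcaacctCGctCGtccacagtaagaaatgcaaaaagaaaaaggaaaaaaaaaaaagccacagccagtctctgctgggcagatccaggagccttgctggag
Hoxa10: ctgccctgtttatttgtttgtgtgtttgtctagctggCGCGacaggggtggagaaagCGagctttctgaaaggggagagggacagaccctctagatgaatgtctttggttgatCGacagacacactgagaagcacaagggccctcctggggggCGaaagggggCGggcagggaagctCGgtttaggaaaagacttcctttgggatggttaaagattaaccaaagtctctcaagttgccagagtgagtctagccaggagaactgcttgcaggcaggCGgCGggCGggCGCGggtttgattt
Hoxd13: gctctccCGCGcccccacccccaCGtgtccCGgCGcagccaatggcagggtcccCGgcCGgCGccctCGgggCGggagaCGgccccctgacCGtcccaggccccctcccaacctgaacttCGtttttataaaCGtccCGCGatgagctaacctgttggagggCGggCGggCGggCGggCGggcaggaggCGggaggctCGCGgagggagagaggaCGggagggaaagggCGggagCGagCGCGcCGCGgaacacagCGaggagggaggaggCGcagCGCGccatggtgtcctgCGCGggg
Hoxa13: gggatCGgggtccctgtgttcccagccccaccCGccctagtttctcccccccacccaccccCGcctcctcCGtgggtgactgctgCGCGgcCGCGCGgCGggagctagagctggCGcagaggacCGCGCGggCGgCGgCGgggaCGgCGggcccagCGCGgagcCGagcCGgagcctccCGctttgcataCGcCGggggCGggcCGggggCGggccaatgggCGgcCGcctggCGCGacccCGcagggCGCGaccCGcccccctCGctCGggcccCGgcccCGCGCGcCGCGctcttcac

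The Hoxd8 promoter held 6 CpG and that of Hoxa10 held 12, against 37 in Hoxd13 and 45 in Hoxa13. Of all 32851 RefSeq promoter entries of this length, 56.4% had at least as many CpG as Hoxd8, 39.6% as many as Hoxa10, 5.58% as many as Hoxd13 and 1.93% as many as Hoxa13, and the median was 7. Hoxa10 has another RefSeq entry, nearer to its 3′ end (chr6:52234890-52235189), with 21 CpG, a number that 24.8% of promoters reach, and the medians and the plot of CpG take that entry. RefSeq entries were at hand for 22 of the 39 Hox genes, 24 entries in all. The 17 of them with enough reads to test had a median of 15 CpG, from 4 to 29, and the 5 with too few reads a median of 29, from 10 to 45. The ranges overlapped: Hoxb1, with 2 reads in the whole study, had 10 CpG, and Hoxa5, with 3068 reads, had 29. Hoxd12, also with 2 reads, had 13. A CpG count is a description of the sequence and was not set against any measure of chromatin.

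**Figure D1:**
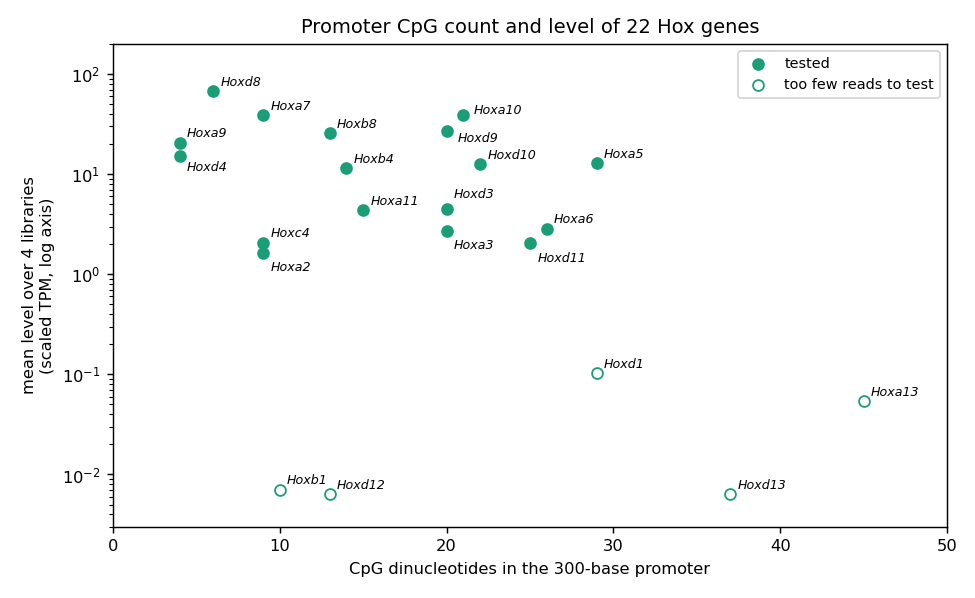
Number of CpG dinucleotides in the 300-base promoter (x axis) against the mean level over the 4 libraries in scaled TPM (y axis, log scale) for the 22 Hox genes with a RefSeq promoter entry, taking the entry with more CpG where a gene has 2. Filled points are genes that could be tested and open points genes with too few reads, of which Hoxd13 and Hoxa13 have the most CpG while Hoxb1 and Hoxd12 have 10 and 13.

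Several microRNA genes lie inside the clusters, and their mature sequences are shown because they group by seed across clusters as the Hox genes group by number. The seed, bases 2 to 8, is in capitals. The 4 sequences are RefSeq's, read in GRCm38.p6, and fall into a pair with the seed of the miR-10 family and a pair with that of the miR-196 family, whose known targets include Hox genes.
mmu-miR-10a-5p: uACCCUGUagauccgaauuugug
mmu-miR-10b-5p: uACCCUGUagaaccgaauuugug
mmu-miR-196a-5p: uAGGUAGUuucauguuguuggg
mmu-miR-196b-5p: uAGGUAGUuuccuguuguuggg

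Poly(A) libraries do not measure mature microRNAs, so reads at these loci are those of longer transcripts across them. Mir196b, at chr6:52230129-52230150 for the arm shown, had 77, 47, 49 and 53 reads in WT replicate 1, WT replicate 2, HET replicate 1 and HET replicate 2. All 85 bases of the Mir196b row are exon bases of Hoxa9 on the same strand, so its reads cannot be told apart from those of Hoxa9. Mir196a-1 in HoxB (chr11:96265187-96265208) had 51, 45, 92 and 78 reads. Mir196a-2 in HoxC and Mir10b in HoxD had 0 reads in every library, and Mir10a in HoxB had 3 reads, all in HET replicate 1. Reads across the loci of the miR-196 seed thus came from HoxA and HoxB and not from HoxC.

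Levels below are TPM, which correct for exon length and so allow genes to be compared, scaled between libraries, and values are always given in the order WT replicate 1, WT replicate 2, HET replicate 1, HET replicate 2. Most Hox genes were transcribed in the adult kidney. A mean level of at least 1 TPM over the 4 libraries was reached by 29 of the 39 genes, at least 5 TPM by 18, at least 10 TPM by 15, at least 20 TPM by 9 and at least 30 TPM by 3. The tested Hox genes had a median level of 9.81 TPM, against 5.80 TPM over all 22356 genes tested, and 17 of the 31 lay above that median. Since these are bulk samples, fewer cells of a type and less RNA per cell cannot be told apart in any level given here.

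**Figure D2:**
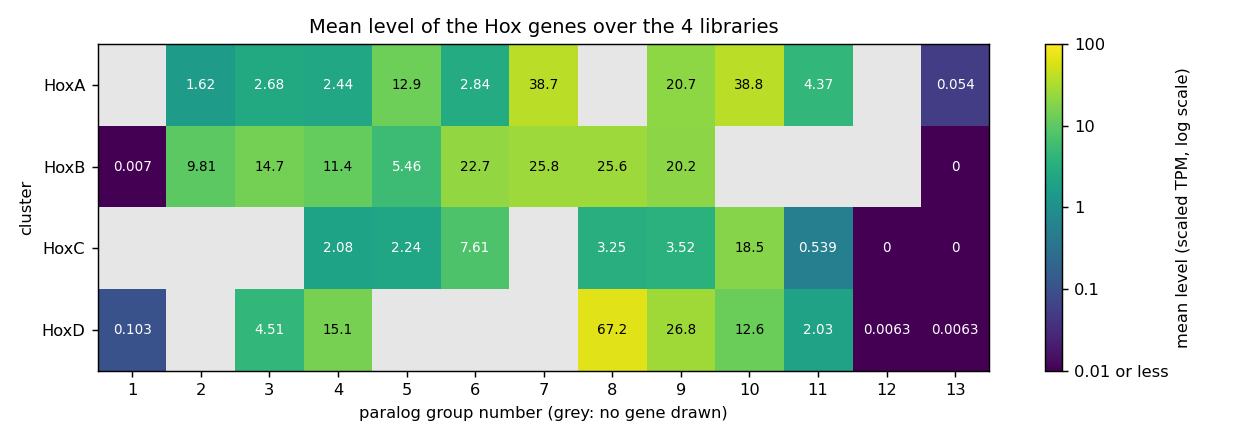
Mean level of the Hox genes over the 4 libraries in scaled TPM (number in each cell, colour on a log scale), by cluster (rows) and paralog group (columns), with grey where no gene is drawn. Levels are highest in groups 7 to 10, with Hoxd8 at 67.2 TPM, and near 0 in groups 12 and 13.

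Levels were highest in the middle of the clusters and toward the tail end. Paralog group 8 held 22.4% of the summed Hox level, group 9 held 16.6%, group 10 held 16.3% and group 7 held 15.1%. Toward the head end, group 4 held 7.26%, group 3 held 5.12% and group 2 held 2.67%. Toward the tail end the level dropped within few genes: group 11 held 1.62%, and groups 12 and 13 held 0.00148% and 0.0141%.

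Hoxd8 was the most abundant Hox transcript. Its level was 65.1, 58.2, 86.3 and 59.0 TPM (chr2:74704615-74707933), 15.7% of the summed Hox level and 52.3% of that of HoxD, and it exceeded 92.5% of the genes tested. HET replicate 1 stood above the other libraries, and the other HET library lay within the WT range.

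Hoxa10, which in mice is needed for implantation in the uterus and for lumbar patterning, and Hoxa7, a gene of thoracic patterning, came next with nearly equal means of 38.8 and 38.7 TPM. Hoxa10 was at 46.5, 41.0, 35.6 and 31.8 TPM and Hoxa7 at 49.4, 41.0, 32.8 and 31.6 TPM. In both genes the WT libraries were the higher pair, without overlap. Together with Hoxd8 they made up 33.8% of the summed level.

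The next genes came from all 4 clusters. Hoxd9, a gene of the forelimb and hindlimb, was at 26.05, 26.2, 33.1 and 22.1 TPM. Hoxb7, whose regulatory sequence is widely used in mice to drive transgenes in the ureteric bud and the collecting duct, was at 29.6, 26.2, 26.8 and 20.7 TPM. The groups overlapped in Hoxb7 and in Hoxd9, where HET replicate 1 was highest and HET replicate 2 lowest. Hoxb8, known in mice from blood progenitors and microglia, was at 24.4, 26.1, 31.6 and 20.3 TPM, with both WT libraries between those labelled HET.

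Hoxb6 was at 20.9, 21.6, 26.03 and 22.3 TPM, with HET above WT by a narrow margin. Hoxa9, a regulator of blood stem cells that is often high in leukaemia, was at 22.3, 21.01, 19.4 and 19.98 TPM, with HET below WT by as little. Hoxb9, a gene of rib patterning, was at 17.2, 19.8, 25.6 and 18.1 TPM. Its HET libraries lay farther apart than its WT libraries, and the groups overlapped.

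Hoxc10, a gene of lumbar motor neurons and the leading member of HoxC, was at 19.0, 16.6, 21.9 and 16.5 TPM and made up 48.997% of the HoxC level. Hoxd4, a gene of the hindbrain and neck, was at 12.4, 14.3, 17.8 and 15.9 TPM under the identifier ENSMUSG00000101174. Hoxb3 was at 15.5, 13.8, 15.1 and 14.5 TPM, and 52.9% of its exon bases are shared with other rows, chiefly the antisense gene Hoxb3os. These 12 genes held 78.2% of the summed Hox level, so the other 27 held the rest.

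Apart from the highest gene, the order of levels was not sharp. Of the 30 neighbouring pairs in the order of the 31 tested genes, 27 had ranges over the 4 libraries that overlapped. Among the 3 pairs apart were Hoxd8 and Hoxa10, and Hoxc6 and Hoxb5.

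The remaining tested genes of HoxA and HoxB were lower. Hoxa5, a gene of lung and trachea development, had a mean of 12.9 TPM, and Hoxb4, known for expanding blood stem cells, one of 11.4 TPM. Hoxb2 had a mean of 9.81 TPM and Hoxb5 one of 5.46 TPM. Hoxa11, of the kidney-forming group 11, was at 3.67, 4.58, 4.41 and 4.84 TPM, with WT replicate 1 the lowest. The antisense gene Hoxa11os, with 153, 186, 200 and 269 reads, shares 35.0% of the Hoxa11 exon bases. Reads there cannot be told apart. Hoxa6 (2.84 TPM), Hoxa3 (2.68 TPM), Hoxa4 (2.44 TPM) and Hoxa2 (1.62 TPM) followed, and their HoxB counterparts of the same number were higher.

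HoxC was the least abundant cluster. Hoxc6 had a mean of 7.61 TPM, Hoxc9 of 3.52 TPM, Hoxc8 of 3.25 TPM, Hoxc5 of 2.24 TPM and Hoxc4 of 2.08 TPM. Hoxc11 was the lowest tested Hox gene, at 0.526, 0.369, 0.838 and 0.424 TPM from 31, 24, 51 and 30 reads. In HoxD, Hoxd10 had a mean of 12.6 TPM, Hoxd3 of 4.51 TPM and Hoxd11 of 2.03 TPM. The group 11 genes were therefore all detected, in the order Hoxa11, Hoxd11 and Hoxc11. Hoxa11, including any reads of Hoxa11os in the shared bases, gave 63.0% of their summed level.

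A total of 8 genes had too few reads to test, and they sit at the ends of the clusters. Hoxb13, Hoxc12 and Hoxc13, which act in the tail, the prostate or the hair follicle, had 0 reads in every library. A count of 0 allows 3 reads per library, which is up to 0.0466 TPM for Hoxb13, 0.0998 TPM for Hoxc12 and 0.0418 TPM for Hoxc13, counting error only. Hoxd12 had 0, 1, 1 and 0 reads and Hoxd13 had 1, 0, 0 and 1, both genes of the digits.

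At the head end, Hoxb1, the hindbrain gene, had 1, 1, 0 and 0 reads, and Hoxd1 had 4, 6, 10 and 4. Hoxa13, which patterns digits, bladder and hindgut, had 1, 1, 2 and 14 reads. HET replicate 2 held 14 of its 18 reads. That library also had the highest summed level of 6 urothelium markers, 27.1, 36.9, 35.1 and 44.7 TPM. All 6 were detected in each library, and Upk3a was highest in WT replicate 2. The same library was highest for 5 fat markers (100, 174, 110 and 225 TPM) and 5 smooth muscle markers (121, 111, 111 and 138 TPM). It was also highest for 7 interstitial fibroblast markers (117, 182, 167 and 206 TPM). Sums of the nephron segment markers, given below, were highest in other libraries. The part of any of these tissues in the Hoxa13 reads was not tested.

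**Figure D3:**
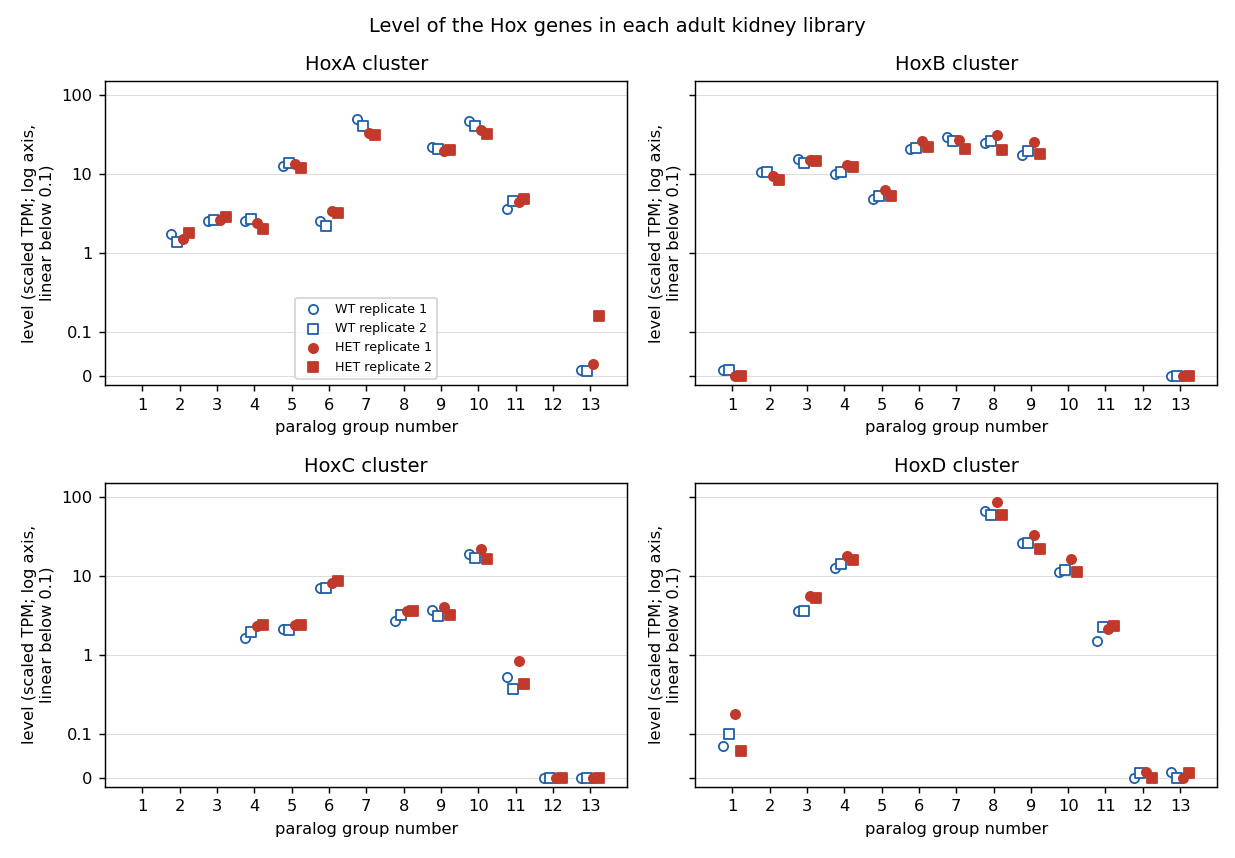
Level of the Hox genes in each library (y axis, scaled TPM, log scale that is linear below 0.1) by paralog group (x axis) in the 4 clusters, with open symbols for WT and filled symbols for HET. The 4 libraries give a similar outline in each cluster, with HET replicate 1 highest for Hoxd8, Hoxd9, Hoxd10, Hoxb8 and Hoxb9.

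Replicates of a genotype differed beyond counting error in many Hox genes. The difference between WT replicates exceeded 2 counting standard errors for 13 of the 31 tested genes and that between HET replicates for 16. The median absolute log2 difference was 0.16 in WT and 0.17 in HET. HET replicate 1 was the higher HET library for 22 genes, whereas WT replicate 1 was the higher WT library for 13.

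The comparison of the genotypes asks which transcripts differ in kidneys of Tshz3 heterozygotes. No Hox gene passed the test. With limma and an adjusted p below 0.1 over all 22356 genes tested, 0 of 31 Hox genes were called, beside a background of 2 genes or 0.00895%. The lowest limma adjusted p of a Hox gene was 0.622. Among the 97 genes of the authors' deposited table (55 higher in HET, 42 lower) 0 are Hox genes. The limma-voom fit on reads called 0 Hox genes as well, with 3 at an unadjusted p under 0.05.

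At an unadjusted limma p under 0.05 there were 3 Hox genes, 9.68% of the 31, where the background over all genes was 7.26%. In the higher direction it was 1 gene (background 3.81%), and in the lower direction it was 2 (background 3.46%). The 3 genes are Hoxd3, Hoxa7 and Hoxa10, and the share is near the background. All 31 confidence intervals (95%) of the log2 fold change lay between -0.83 and 0.89, and the median distance from estimate to bound was 0.41. Each thus excludes a doubling or a halving of TPM + 0.5. For genes of low level a doubling of the TPM itself is a smaller step on this scale. It is not excluded for Hoxc11, whose interval ran from -0.30 to 0.78.

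Hoxd3, a gene of the neck vertebrae, had the largest positive difference. Its level was 3.60, 3.63, 5.56 and 5.26 TPM (chr2:74711927-74748442), so the WT libraries were nearly equal and both HET libraries lay above them. The difference was 0.52 ± 0.15 on the log2 scale (SE, limma adjusted p = 0.622). Of its exon bases, 62.8% are shared with other rows: 53.1% with Gm28230, a row that spans Hoxd3 and Hoxd4, and 9.26% with Hoxd4. Gm28230 was at 8.69, 9.81, 12.8 and 11.99 TPM and had a log2 fold change of 0.40. Reads of these rows cannot be told apart.

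Hoxd4 differed by 0.33 ± 0.14 on the log2 scale (SE, limma adjusted p = 0.622), with HET above WT. Its identifiers share 1935 exon bases and held 843, 1068, 1245 and 1295 reads and 805, 1029, 1170 and 1236 reads, so most reads were counted under both, and the second gave 0.31. Only the first enters the counts and sums given here. All of its exon bases are shared with other rows, among them 43.6% with Gm28230, 16.7% with Hoxd3 and 14.9% with the antisense gene Hoxd3os1. Its difference is therefore not separate from that of Hoxd3 and Gm28230.

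Hoxa6 was at 2.55, 2.20, 3.38 and 3.24 TPM, from 65, 62, 89 and 99 reads, with HET above WT and no exon base shared with another row. It differed by 0.41 ± 0.17 on the log2 scale (SE, limma adjusted p = 0.622). Hoxc4 was at 1.63, 1.97, 2.31 and 2.39 TPM, again with HET above WT, and its log2 fold change was 0.31 ± 0.19 (SE).

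Hoxa7 had the largest negative difference. With the levels given above, its log2 fold change was -0.48 ± 0.15 (SE), and the limma adjusted p was 0.622. The antisense gene Hoxaas3 shares 20.4% of the Hoxa7 exon bases and was at 18.5, 15.4, 11.4 and 11.5 TPM, which is -0.54 ± 0.14 on the log2 scale (SE, limma adjusted p = 0.622). The WT libraries were the higher ones in each of this antisense pair, whose reads cannot be told apart where their exons overlap.

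Hoxa10, which shares no exon base with another row, differed by -0.37 ± 0.14 on the log2 scale (SE, limma adjusted p = 0.622). Hoxb2, a hindbrain gene, was at 10.8, 10.6, 9.46 and 8.41 TPM, with HET below WT and a log2 fold change of -0.25 ± 0.13 (SE). The antisense gene Hoxb3os, in which HET also lay below WT, shares 27.3% of the Hoxb2 exon bases. Reads there cannot be told apart. Hoxb7 had -0.24 ± 0.17 (SE), and its groups overlapped.

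**Figure D4:**
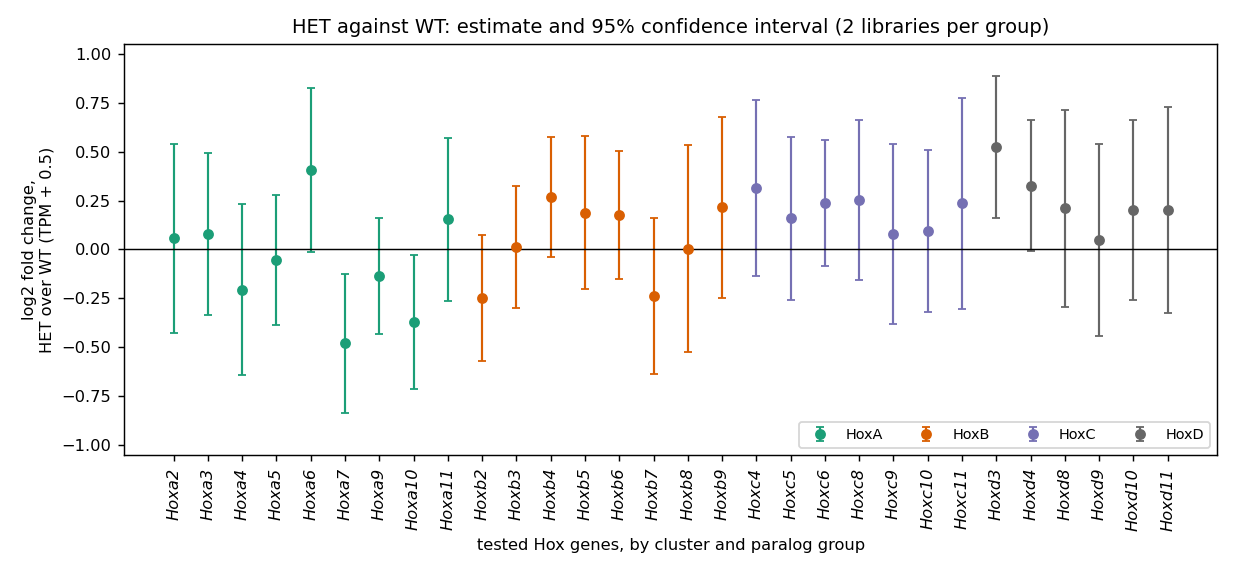
Log2 fold change of HET over WT on the scale of log2(scaled TPM + 0.5) for the tested Hox genes reported by name, by cluster and paralog group, with points for the limma estimate and bars for its 95% confidence interval (2 libraries per group). All points in HoxC and HoxD lie above 0, and none of the genes passed the adjusted threshold.

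By count, 23 of the 31 tested Hox genes had a log2 fold change above 0, where 51.1% of all genes tested did, and 8 were below. Their median was 0.15, beside 0.0067 over all genes tested. The HET libraries were both higher than either WT library for 9 genes, 29.0% of 31 (background 21.8%), and both lower for 5, 16.1% (background 23.1%). For the other 17 genes the groups overlapped. The median rests on HET replicate 1: without that library it was -0.030, and 14 of the 31 genes were above 0.

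By cluster the signs were as follows, with no test of the difference between clusters. In HoxA 4 genes were above 0 and 6 below, with a median log2 fold change of -0.094. In HoxB there were 6 above and 2 below (median 0.094), in HoxC 7 above and 0 below (median 0.24), and in HoxD 6 above and 0 below (median 0.21). The sign of many single genes turned with 1 library: without HET replicate 1 it turned for Hoxb3, Hoxb8, Hoxb9, Hoxc9, Hoxc10, Hoxc11, Hoxd8, Hoxd9 and Hoxd10.

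The total Hox output did not separate the groups. The summed level of the 39 genes was 435, 417, 475 and 385 TPM, with both WT libraries inside the range of those labelled HET. The mean log2 of the sums differed by 0.0072 between the groups. It was 0.26 without scaling of the TPM, where the median log2 fold change of all genes tested was 0.20.

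Within that output, the HoxA share was smaller and the HoxD and HoxC shares were larger in the libraries labelled HET. The shares of a library add up to the whole, so a lower share of any cluster raises the others. HoxA made up 33.3%, 31.6%, 24.6% and 28.8% of the summed level, a share that does not depend on the scaling between libraries. HoxD made up 27.6%, 28.0%, 33.9% and 30.02%, and HoxC 8.42%, 8.21%, 9.07% and 9.62%. In these 3 clusters the groups did not overlap, whereas HoxB, at 30.7%, 32.2%, 32.4% and 31.6%, overlapped. With 2 libraries in each group the smallest two-sided p of an exact permutation test is 0.333, and no test of these shares is given.

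In scaled TPM the HoxA sum was 145, 132, 117 and 111, lower in both HET libraries. As deposited, without scaling, it was 124, 128, 124 and 125, where the groups overlap. The HoxD sum was 120, 117, 161 and 116 in scaled TPM, so that HET replicate 1 stood alone, and 103, 114, 171 and 130 as deposited, where both HET libraries were higher. The HoxB sum was 133, 134, 154 and 122 in scaled TPM, where the groups overlap, and 115, 131, 163 and 137 as deposited, where both HET libraries were higher. The HoxC sum was 36.6, 34.2, 43.0 and 37.1 in scaled TPM and 31.5, 33.3, 45.6 and 41.8 as deposited, with both HET libraries higher on either scale.

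Markers of nephron segments moved between the libraries too. The summed level of 4 distal convoluted tubule markers was 233, 250, 437 and 240 TPM, that of 8 principal cell markers of the collecting duct was 545, 622, 746 and 470 TPM, and that of 4 thick ascending limb markers was 2288, 2597, 3312 and 2457 TPM. HET replicate 1, the library with the highest Hoxd8, Hoxd9, Hoxd10, Hoxb8 and Hoxb9, was the highest in all 3 lists. It was also the highest for 4 podocyte markers (184, 198, 241 and 189 TPM). The same held for 5 intercalated cell markers (134, 125, 165 and 118 TPM). The 5 endothelium markers summed to 263, 275, 279 and 263 TPM, a sum carried by Plvap (166, 162, 178 and 153 TPM). The endothelium genes Pecam1 (25.6, 29.6, 27.6 and 28.9 TPM) and Emcn (27.0, 31.0, 26.2 and 28.3 TPM) were highest in WT replicate 2. Cdh5 and Kdr were highest in HET replicate 2. Single markers of a list went different ways. The distal convoluted tubule gene Calb1 was at 83.8, 89.7, 237 and 94.1 TPM. The principal cell gene Aqp3 was at 106, 109, 94.2 and 83.9 TPM. The 6 proximal tubule markers summed to 4403, 3665, 3404 and 3517 TPM, and 7 interstitial fibroblast markers to 117, 182, 167 and 206 TPM. No marker of these lists was at 0, and the part of the segments and cell types in the Hox levels was not tested.

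Other markers differed by label or in HET replicate 1. The 4 macrophage markers summed to 79.0, 86.7, 128 and 129 TPM, with 3 of 4 higher in both HET libraries (background 21.8%). Lyz2 was at 32.3, 45.2, 77.5 and 83.98 TPM, whereas Csf1r, at 40.6, 33.6, 39.8 and 31.9 TPM, overlapped between groups. None of the 4 was called by limma, and 3 had an unadjusted p under 0.05 (background 7.26%). The Y-linked genes set HET replicate 1 apart as well, with Ddx3y at 21.1, 16.2, 4.02 and 16.99 TPM, while Xist was at 18.1, 39.7, 60.5 and 57.7 TPM. The part of macrophages, and of whatever sets the Y-linked genes and Xist apart, in the Hox levels was not tested.

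**Figure D5:**
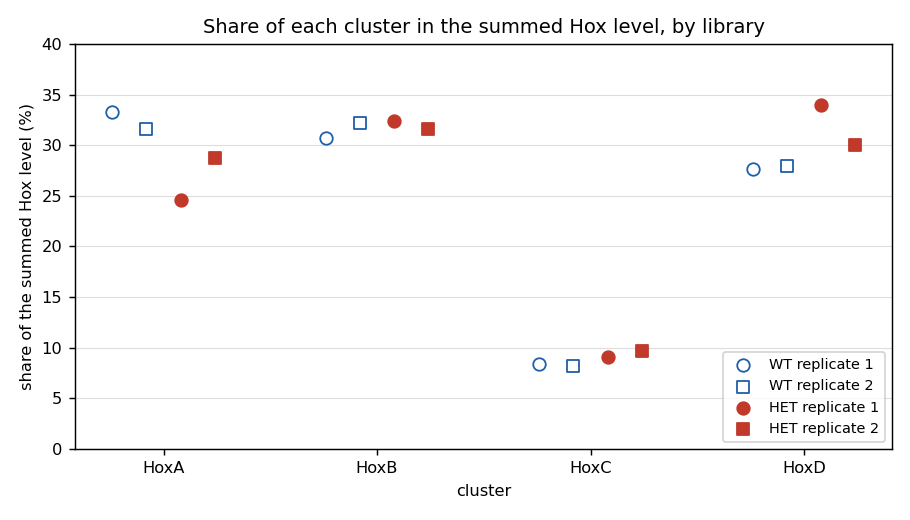
Share of each Hox cluster in the summed Hox level (y axis, percent of scaled TPM) in each library, with open symbols for WT and filled symbols for HET. HoxA is lower and HoxD and HoxC are higher in both HET libraries, and HET replicate 1 has the lowest HoxA share, 24.6%, and the highest HoxD share, 33.9%.

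The clusters also hold 46 other annotated rows, mostly antisense genes, microRNAs and short RNAs annotated as miscellaneous. Some of the short rows lie within the span of a longer one, so the rows are not independent. Of these, 27 could be tested, and limma called 0 at an adjusted p below 0.1, beside the background of 0.00895%. There were 18 above 0 and 9 below, with a median log2 fold change of 0.15, and 5 had an unadjusted limma p under 0.05. These are 66.7% above 0 (51.1% of all genes tested) and 18.5% under 0.05 (7.26% of all), for rows of which some share exon bases with Hox genes. The most abundant long antisense gene was Hoxb3os at 24.8, 22.2, 21.02 and 20.6 TPM, followed by Hoxb5os at 17.9, 23.2, 24.3 and 19.1 TPM. WT lay above HET in Hoxb3os, while the groups overlapped in Hoxb5os.

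The short rows Gm27868 (38.7, 43.3, 51.4 and 34.5 TPM) and Gm27477 (27.6, 22.2, 27.9 and 18.8 TPM) lie in HoxA and overlapped between groups. Their lengths are 102 and 143 bases, and their TPM rest on only 94 to 158 reads per library. Mir196b, which lies wholly in exon bases of Hoxa9, was at 31.1, 17.2, 19.1 and 17.8 TPM, with WT replicate 1 apart from the rest. Mir196a-1 was at 17.1, 13.71, 29.9 and 21.9 TPM, with HET above WT and a difference of 0.72 ± 0.19 on the log2 scale (SE, limma adjusted p = 0.622). Gm53, a long noncoding RNA in HoxB, was at 6.34, 8.81, 15.8 and 9.16 TPM, highest in HET replicate 1 as were its neighbours Hoxb8 and Hoxb9. Hotair, the HoxC noncoding RNA, had 1, 1, 3 and 2 reads. Gm53, Hoxaas3 and Hotair were named after their values were seen.

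The DNA-binding partners of Hox proteins ranged from Pbx2, the highest of those given here, down to Pbx4, which had 9, 15, 24 and 17 reads. All 9 TALE cofactors were tested, and limma called 0 (background 0.00895%), with 0 also at an unadjusted p under 0.05 (background 7.26%). Of the 9, 7 had a log2 fold change above 0 (background 51.1%), with a median of 0.045. Pbx2 was at 20.7, 21.1, 21.1 and 22.02 TPM and did not overlap between groups, though all 4 values lay close together. The smallest p in each direction belonged to Meis3 (0.756, 0.940, 1.57 and 1.08 TPM) and Pknox1 (12.5, 9.82, 9.10 and 9.76 TPM), and neither passed.

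Of 25 chromatin regulators of the clusters, all were tested and 0 were called (background 0.00895%). At an unadjusted limma p under 0.05 there were 2 (background 7.26%). Of the 25, 14 were above 0 (background 51.1%), and the median was 0.034. The Polycomb gene Bmi1 was at 33.7, 30.6, 25.6 and 29.0 TPM, and Wdr5, a subunit of the trithorax methyltransferases, at 27.5, 27.7, 26.8 and 28.2 TPM. Kmt2a, the trithorax methyltransferase that maintains Hox transcription, was at 5.28, 6.43, 7.43 and 9.26 TPM, with HET above WT (log2 fold change 0.48 ± 0.17, SE, limma adjusted p = 0.622). Ring1, a Polycomb ubiquitin ligase, was at 15.8, 14.4, 10.3 and 11.5 TPM, with HET below WT (-0.45 ± 0.14, SE, limma adjusted p = 0.622).

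In the retinoic acid pathway 16 of 18 genes were tested and 0 were called (background 0.00895%). At an unadjusted limma p under 0.05 there were 0 (background 7.26%). Of the 16, 5 were above 0 (background 51.1%) and 11 below, with a median of -0.11. Dhrs3, which turns retinaldehyde back to retinol, was at 103, 90.4, 120 and 70.9 TPM and the receptor gene Rxra at 63.8, 56.1, 53.2 and 53.9 TPM. Aldh1a1, a retinaldehyde dehydrogenase, was at 4.25, 7.42, 14.1 and 7.96 TPM, highest in HET replicate 1. Rdh10, which oxidises retinol, was at 49.5, 32.3, 28.8 and 28.9 TPM, with WT replicate 1 apart from the rest.

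Among the partners and targets of the group 11 genes, 9 of 10 were tested and 0 were called (background 0.00895%). At an unadjusted limma p under 0.05 there were 0 (background 7.26%). Of the 9, 7 were above 0 (background 51.1%), and the median was 0.10. Sall1 was at 21.7, 31.5, 33.5 and 28.3 TPM and Pax2 at 13.8, 15.3, 20.6 and 11.9 TPM. The list members Eya1 (6, 22, 21 and 21 reads) and Six2 (2, 1, 5 and 0 reads) had few reads. So did Gdnf, which encodes the signal that draws in the ureteric bud, with 13, 9, 15 and 8 reads. Osr1 was at 1.31, 1.203, 0.610 and 1.07 TPM, with HET below WT. Hoxa11 and Hoxd11 thus had reads in libraries in which Eya1, Six2 and Gdnf had few, while Pax2 was at 11.9 to 20.6 TPM.

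Of 12 upstream homeobox genes and neighbours of the clusters, 5 were tested and 0 were called (background 0.00895%). At an unadjusted limma p under 0.05 there were 0 (background 7.26%), and the median was -0.047. The caudal genes Cdx1 and Cdx2 and the ParaHox genes Gsx1 and Pdx1 had 0 reads in every library, and Cdx4 had 15, 8, 30 and 15. Evx1 and Evx2, which lie just beyond the tail ends of HoxA and HoxD, had 1 read each in the whole study. The next neighbour Mtx2, beyond the head end of HoxD, was at 40.4, 33.6, 34.8 and 31.1 TPM, and Skap2, beyond the head end of HoxA, at 10.2, 9.55, 9.19 and 9.34 TPM. Skap1, beyond the head end of HoxB, was low at 0.253, 0.375, 0.289 and 0.494 TPM, so neighbours at the head ends ranged widely in level.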

How the data were processed

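The authors deposited TPM per gene for 4 libraries with exon coordinates and length, and a table of their own comparison with log2 fold changes and adjusted p-values. The submitters' processing notes name mm10 as the build and DESeq, DESeq2 and edgeR as tools. The sources used here give no aligner, counter or strand setting, so reads of overlapping or antisense genes cannot be told apart. TPM times length gave whole reads for 100% of values (tolerance 0.001 reads), used only for depth, scaling, filtering and limma-voom.

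TPM were scaled with trimmed-mean-of-M-values factors of 0.901 and 0.989 (WT replicates 1 and 2) and 1.05 and 1.07 (HET replicates 1 and 2). The 22356 genes with 10 or more reads, scaled to the median depth, in 2 libraries and 15 over the 4 were tested with limma 3.58.1 (R 4.3.3, statmod 1.5.0) on log2(TPM + 0.5), with variance trend and robust moderation and Benjamini-Hochberg adjustment over all genes. This scale understates changes of low genes. Errors are SE over 2 libraries a group, and counting errors cover read sampling only. The fit was tested on simulated data, where false calls made up more than the nominal share at the adjusted threshold and lay mostly among genes with few reads, so a call here is less certain than its adjusted p.

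Members and gene lists were chosen with earlier results of these data known. Named in full are the 12 highest Hox genes, the 4 largest differences per direction, and in other lists the 2 highest genes and the smallest p per direction, and of other rows in the clusters the 6 highest. Further genes of the lists were named for their roles. Some genes of the clusters and lists enter counts and sums but are not reported here by name.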

Additional observations from a re-analysis of the deposited data

How the results depend on the processing

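Under all 12 alternatives (TPM not scaled, pseudocounts of 0.1 and 1, no filter, 1 read per 1000000 in 2 libraries, limma-voom, no robust moderation, replicate block, and each library left out) 0 Hox genes and 0 genes of the 5 pathway lists were called. Over all genes the count of 2 was 0 without a filter, 5 at 1 read per 1000000, 0 with limma-voom (1771 at an unadjusted p under 0.05), 1 without robust moderation and 0 with the replicate block. With 1 library left out it ran from 0 (without WT replicate 1) to 97 (without HET replicate 2), with 8 without WT replicate 2 and 61 without HET replicate 1. The lone library is then assumed to vary like the other group.

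The median log2 fold change of the tested Hox genes, 0.15, was 0.36 without scaling, where the median of all genes was 0.20, and ran from -0.030 to 0.23 with 1 library left out. The log2 ratio of the summed level, 0.0072, was 0.26 without scaling and -0.14 to 0.16 with 1 library left out. The direction of 16 of the 31 genes held under all 12 alternatives. Without scaling it turned for Hoxa4 (0.0035), Hoxa5 (0.19), Hoxa9 (0.12) and Hoxb7 (0.014). With 1 library left out, the values ran from -0.078 to 0.18 (Hoxa2), -0.14 to 0.033 (Hoxa5), -0.077 to 0.094 (Hoxb3), -0.31 to 0.32 (Hoxb8), -0.032 to 0.46 (Hoxb9), -0.070 to 0.23 (Hoxc9), -0.10 to 0.29 (Hoxc10), -0.030 to 0.49 (Hoxc11), -0.063 to 0.48 (Hoxd8), -0.24 to 0.33 (Hoxd9), -0.053 to 0.46 (Hoxd10) and -0.021 to 0.42 (Hoxd11). The cause was not tested.

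The deviations of WT replicate 1 and HET replicate 1 from their group means correlated at 0.12 over 22356 genes, but 2 pairs with shared numbers do not show a shared source. The replicate block called 0 Hox genes. Depth limits Hoxc11 and the 8 genes that were not tested.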
